A study of Mus musculus with 26 samples.

Results

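Hypoxia response genes are genes that cells raise when oxygen falls, and 9 of them were followed here across 26 mouse skin cell lines: Bnip3, Vegfa, Slc2a1, Pdk1, Car9, Egln3, Ndrg1, Adm and Ddit4. They were chosen by name, and each was read from the probe set that is assigned to it alone, the one with the highest mean over the 26 arrays where a gene had several. They made up 9 of 18193 genes with such a probe set, and all 9 were among the 12641 genes tested, meaning that at least 2 of the 26 arrays showed them above that array's median probe set. Values are log2 RMA values, so a difference of 1 is a 2-fold change.

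The lines stand for stages of skin tumour development, were grown in serum and gave RNA in log phase, with 1 array per line. The labels name no treatment and no oxygen level. Immortalised keratinocyte lines were C5N and NK (n = 2), NK having come from a p53 null mouse, and P6 was derived from a papilloma. Squamous carcinoma lines flagged as free of spindle pathology (n = 12) comprised B9, B9ras, B9rassmad, E4, PDV, PDVC57, SN161 and the MSC lines MSCP1, MSCP5, MSC7A, MSC11B and MSC12. Squamous carcinoma lines of spindle form, an elongated, fibroblast-like growth, comprised A5, CarB, CarC, D3, D3DP, H11 and MSN2 (n = 7). Tumours of Spretus/CBA crossed mice gave MSCP5, MSC12, MSCP1, MSC11B, MSC7A and MSCb1, and a Spretus/NIH crossed mouse gave SN161. Spindle state was not stated for MSCb1 and 2945CA, and label and flag conflicted for the carcinoma line B9Smad and for 1 further line called an immortalised keratinocyte line, so these 4 were read singly. The labels give no sign of repeat cultures of a line. The p-values therefore reflect how lines differ from each other, and 1 array gives no error for a single line. Lines that share part of a name (B9, B9ras and B9rassmad, or D3 and D3DP) may be related and were counted as separate lines. The RNA is from whole cultures, in which fewer cells making a transcript and less of it per cell cannot be told apart.

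The hypoxia response rests on the transcription factor HIF, whose alpha subunits are marked for destruction by oxygen-dependent prolyl hydroxylases and pile up when oxygen is short. HIF then binds short DNA elements near its targets and raises genes for blood vessel growth, glucose uptake, glycolysis, pH control and the removal of mitochondria. In carcinoma cells the same targets can also be raised at normal oxygen by oncogenic signalling, and several of them answer to other stress factors too.

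The core of the HIF binding element reads ACGTG or GCGTG, and both were searched on both strands in the 250 bases before each annotated gene start in RefSeq's table for GRCm38.p6, which held 8 of the 9 genes. ACGTG was found in 16.6% of 32851 such stretches, GCGTG in 28.2% and at least 1 of them in 38.6%. Shown are Bnip3, the 1 member called in a comparison, Ddit4 and Vegfa, whose levels followed Bnip3 most closely among the other 8 genes, and Slc2a1, whose level did not. Capitals mark the bases of a match on either strand. A match describes letters only, and a stretch without one says nothing about the factor.
Bnip3: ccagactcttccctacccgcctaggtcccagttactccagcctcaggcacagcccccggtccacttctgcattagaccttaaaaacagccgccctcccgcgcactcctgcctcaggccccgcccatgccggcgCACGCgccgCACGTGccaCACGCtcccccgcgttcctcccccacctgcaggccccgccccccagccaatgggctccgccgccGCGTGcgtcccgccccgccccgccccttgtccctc
Ddit4: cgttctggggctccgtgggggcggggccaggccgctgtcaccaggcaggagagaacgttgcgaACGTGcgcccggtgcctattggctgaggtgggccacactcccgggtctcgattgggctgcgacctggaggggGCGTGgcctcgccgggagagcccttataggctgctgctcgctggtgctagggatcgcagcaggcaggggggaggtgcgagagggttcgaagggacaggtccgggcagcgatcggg
Vegfa: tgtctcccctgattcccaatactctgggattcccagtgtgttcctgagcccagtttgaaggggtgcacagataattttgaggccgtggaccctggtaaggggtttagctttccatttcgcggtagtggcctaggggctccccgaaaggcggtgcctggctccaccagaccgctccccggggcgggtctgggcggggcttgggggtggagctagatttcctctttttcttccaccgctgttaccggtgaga
Slc2a1: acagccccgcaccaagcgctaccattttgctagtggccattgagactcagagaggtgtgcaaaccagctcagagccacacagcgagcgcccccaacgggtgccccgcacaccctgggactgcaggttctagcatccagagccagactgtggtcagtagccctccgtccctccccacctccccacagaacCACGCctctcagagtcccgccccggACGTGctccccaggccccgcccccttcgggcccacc
The Bnip3 stretch lies at chr7:138909507-138909756 on the minus strand and held 3 matches to GCGTG and 2 to ACGTG, the latter being the palindrome CACGTG read on each strand. The Ddit4 stretch (chr10:59951771-59952020, minus strand) and the Slc2a1 stretch (chr4:119108495-119108744, plus strand) held 1 match to each motif. For Vegfa, the stretch before the outer of its 2 annotated starts (chr17:46032378-46032627, minus strand) held 0 matches, and that before the other start held 1 of each. Of the genes not shown, Adm held 2 matches to GCGTG, Car9 and Egln3 1 to ACGTG each, and Pdk1 1 to GCGTG before 1 of its 2 starts.

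Bnip3, a receptor on the outer mitochondrial membrane that marks mitochondria for removal by autophagy, rose from keratinocyte lines to spindle carcinoma lines. It lay at 6.08 in NK and 7.19 in C5N. Among non-spindle lines it ran from 7.53 in PDVC57 through a median of 8.76 to 10.01 in SN161, and among spindle lines from 8.56 in D3 through 9.75 to 10.37 in CarB. Every non-spindle and every spindle line thus stood above both keratinocyte lines, while the non-spindle and spindle ranges overlapped. The group means were 6.63 ± 0.78 (SD, n = 2), 8.66 ± 0.82 (SD, n = 12) and 9.69 ± 0.60 (SD, n = 7). Its highest value, 11.81 in MSCb1, was 53.3-fold above the lowest. Next came 10.76 in 2945CA. The papilloma line P6 (9.93) and the keratinocyte-labelled line of conflicting flag (9.80) lay within the spindle range, and B9Smad (7.68) lay near the lower end of the non-spindle range.

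Ddit4, an inhibitor of the growth kinase complex mTORC1 that is induced by hypoxia and by other stresses, spread more widely than Bnip3 within each group. Its keratinocyte values were 5.60 in NK and 8.71 in C5N. Non-spindle lines ran from 5.07 in B9 through a median of 7.91 to 10.72 in SN161, and spindle lines from 7.64 in H11 through 8.17 to 11.44 in CarB. All 3 groups overlapped, and CarB and CarC (11.41) stood well above the other 5 spindle lines. Ndrg1, a cytoplasmic protein linked to stress and differentiation, was at 8.13 in NK and 8.73 in C5N, from 7.66 (MSC11B) through 9.13 to 10.56 (SN161) in non-spindle lines and from 7.70 (D3) through 8.70 to 10.28 (CarB) in spindle lines. Here too no group stood apart.

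Among the secreted factors, Vegfa, the main growth factor for blood vessels, was at 5.80 in NK and 7.20 in C5N. It ran from 7.11 in PDV through a median of 7.86 to 10.49 in SN161 in non-spindle lines, and from 7.87 in D3DP through 8.16 to 10.45 in CarC in spindle lines. All 7 spindle lines lay above both keratinocyte lines, and 2 non-spindle lines, PDV and MSCP1 (7.19), lay just below C5N. SN161 and CarC stood apart from the rest of their groups. Adm, the vasodilator peptide adrenomedullin, was at 5.20 in C5N and 5.28 in NK, near the array medians of 5.04 to 5.15. It ran from 4.56 in PDVC57, below that array's median, to 10.90 in B9. With the PDVC57 value raised to that median, taken here as the level of background, B9 was at least 54.2-fold higher. The non-spindle and spindle medians were 7.36 and 7.14. Low values were found in both carcinoma groups: H11 (5.08) and A5 (5.11) were as low as the keratinocyte lines.

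Of the metabolic genes, Slc2a1, the glucose transporter GLUT1, ran the other way. Its values were 11.38 in NK and 11.95 in C5N, from 9.62 (MSC11B) through a median of 11.27 to 12.05 (MSCP1) in non-spindle lines and from 9.81 (MSN2) through 10.31 to 11.05 (CarB) in spindle lines. Every spindle line lay below both keratinocyte lines. The 2 highest of all 26 values were in the keratinocyte-labelled line of conflicting flag (13.15) and in the papilloma line (12.61). Pdk1, a kinase that inhibits the pyruvate dehydrogenase complex, varied least apart from Car9, by 5.14-fold from 7.68 in MSC12 to 10.05 in MSCb1. Its group ranges overlapped fully, with means of 8.68 ± 0.42 (SD, n = 2), 8.92 ± 0.76 (SD, n = 12) and 8.55 ± 0.49 (SD, n = 7) in keratinocyte, non-spindle and spindle lines.

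Car9, a carbonic anhydrase of the cell surface and a widely used hypoxia marker, was near background. It exceeded the array's median in 3 of 26 lines only, CarB (6.19), CarC (5.45) and B9 (5.44), and was tested only through these. The other 23 values ran from 4.27 to 5.05, where a fold change is compressed. Egln3, an oxygen-sensing prolyl hydroxylase that is itself a HIF target, was at background in both keratinocyte lines (4.26 in NK, 4.39 in C5N). It ran from 4.72 in B9 through a median of 6.26 to 9.32 in MSC12 in non-spindle lines, and from 6.40 in D3DP through 7.30 to 8.49 in CarB in spindle lines. All 19 carcinoma lines of these groups lay above both keratinocyte lines. Among the 19, B9 and PDVC57 (5.10) were not above their array's median either, so their place above the keratinocyte lines is within background. The highest value of all was in the papilloma line P6 (9.79).

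**Figure D1:**
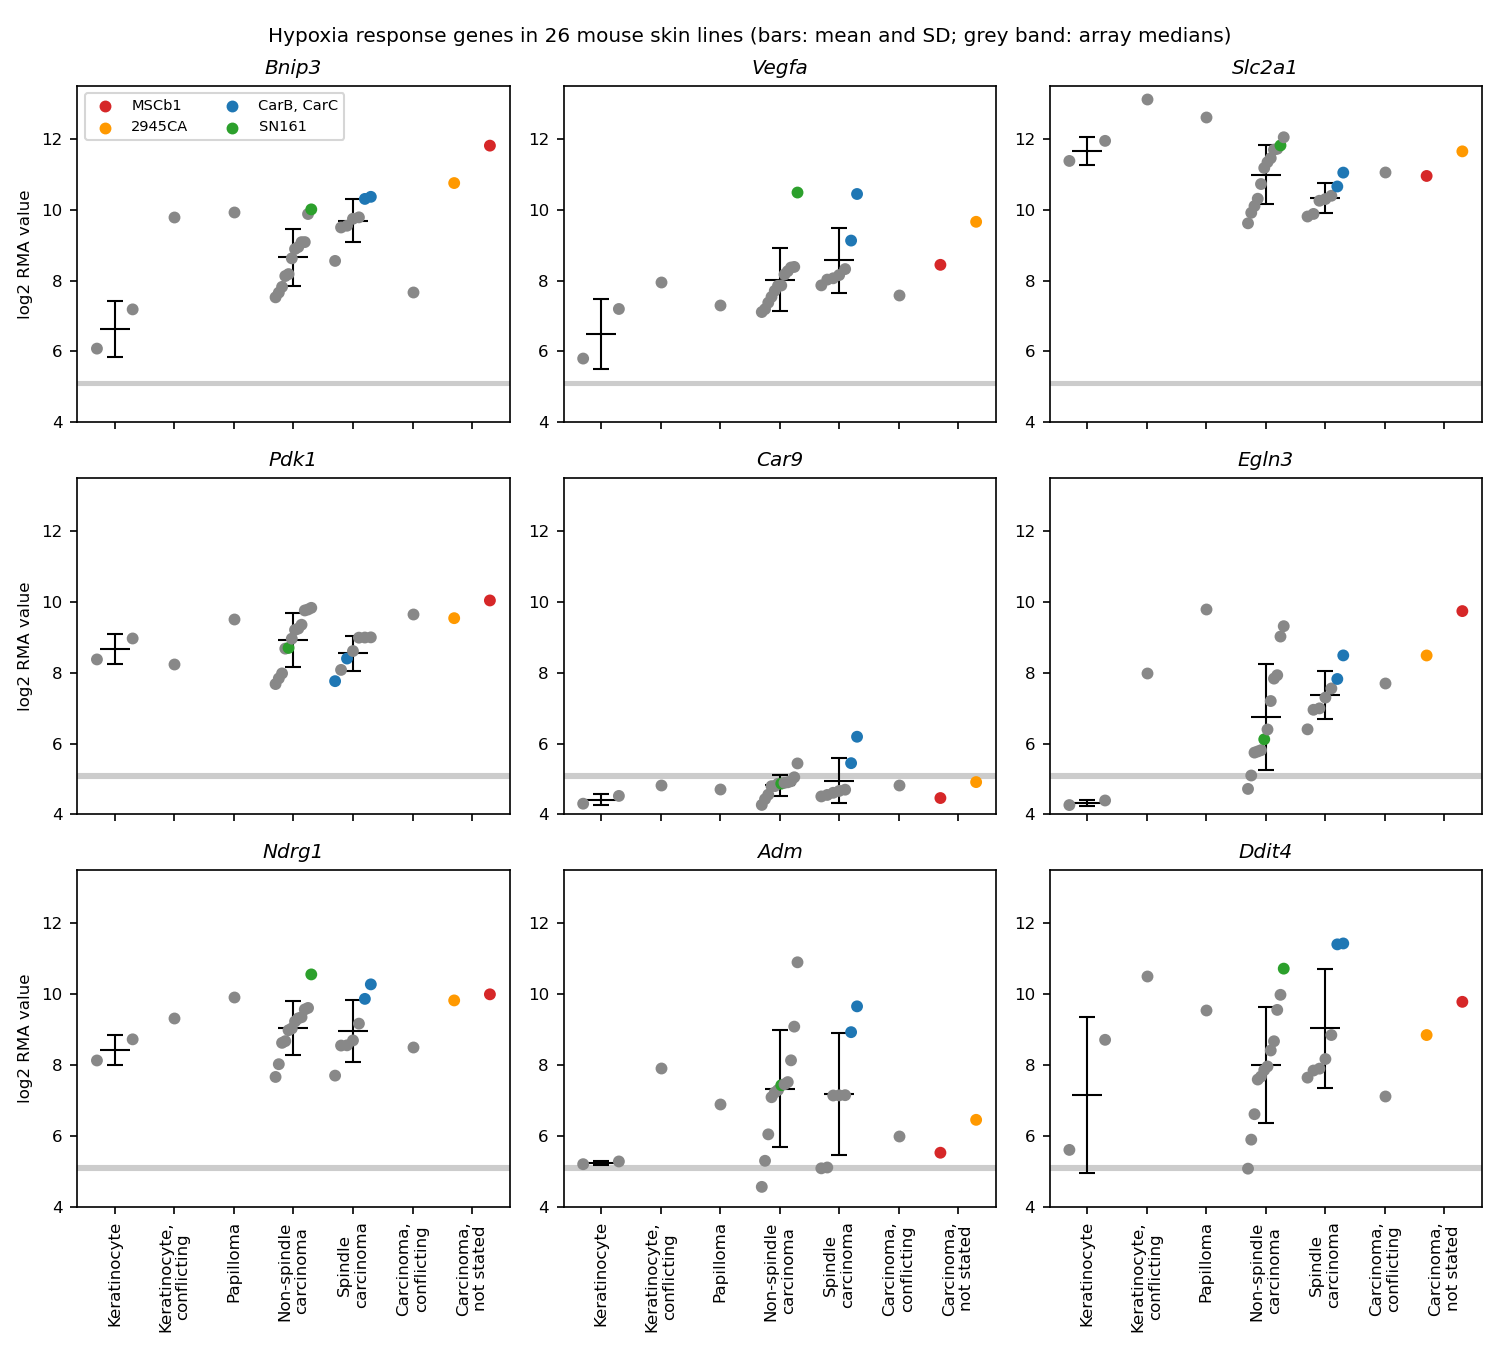
Log2 RMA value (y axis) of each of the 9 genes in each of the 26 lines (points), by stage label (x axis); bars give the mean and SD of groups with 2 or more lines of known state, and the grey band spans the array medians of 5.04 to 5.15. Bnip3 climbs from 6.08 and 7.19 in the keratinocyte lines to 11.81 in MSCb1, Slc2a1 is lower in spindle lines, and Car9 stays near the band.

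The stage comparisons were fitted in 1 model of 21 lines and share groups with each other, so their values are given side by side only. Between spindle and non-spindle lines 0 of the 9 genes were called by limma, against 0.0633% of all genes tested. At an unadjusted p under 0.05 there was 1 member, Bnip3, against 20.7% of all genes. Bnip3 differed by 1.03 (SE 0.34), or 2.05-fold, with a limma Benjamini-Hochberg adjusted p of 0.127. Slc2a1 differed by -0.66 (SE 0.32, limma adjusted p = 0.247), and was called (-0.99, adjusted p = 0.0231) once MSC12, MSC11B and MSC7A were left out, a setting chosen because earlier results of these data showed those lines low in epithelial genes. That setting raised the number of genes called from 8 to 1954. The other 7 members differed by between -0.37 (Pdk1) and 1.03 (Ddit4, SE 0.76), and none of them was called.

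Against keratinocyte lines, non-spindle lines again gave 0 of 9 members called by limma, where 2.02% of all genes tested were. Unadjusted p-values under 0.05 were found for 3 members, all higher in non-spindle lines (5.42% of all genes were). Bnip3 was 2.02 higher (SE 0.55, adjusted p = 0.0623), Vegfa 1.53 higher (SE 0.66, adjusted p = 0.34) and Egln3 2.42 higher as fitted (SE 0.90, adjusted p = 0.229). Neither keratinocyte line had Egln3 above its array's median. With both values raised to that level, a lower bound for the rise in this probe set was 3.19-fold (1.67 in log2). The gene's other probe set gave a smaller rise, 1.21. In 2 members, Bnip3 and Egln3, all 12 non-spindle lines lay above both keratinocyte lines, as in 2.69% of all genes. For Egln3 this order lies partly within background: B9 (4.72) and PDVC57 (5.10), like both keratinocyte lines, were not above their array's median. The call for Bnip3 turned on single lines: its adjusted p was 0.0439 without PDVC57 and 0.0485 without MSCP1. The median over the 9 genes was 0.84, beside 0.02 over all genes tested, and it was set by Ddit4, in which the keratinocyte lines lay far apart. Without NK it was 0.54 and without C5N 2.06.

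Bnip3 was the 1 member called in spindle against keratinocyte lines, where 5.35% of all genes were called and 2.4% were called higher. It rose by 3.06 (SE 0.58), or 8.31-fold, with a limma adjusted p of 0.0044. The call was lost in 2 settings: without NK the rise was 2.50 (adjusted p = 0.111), and when B9Smad and the further keratinocyte-labelled line joined the groups of their cell type label it was 1.75 (adjusted p = 0.114). Egln3 was 3.03 higher as fitted (SE 0.94) and not called (limma adjusted p = 0.0656). By the same lower bound it rose at least 4.88-fold in this probe set (2.29 in log2). Its other probe set gave a smaller rise, 1.50. Vegfa was 2.08 higher (SE 0.70, adjusted p = 0.0873), and Slc2a1 was at -1.33 (SE 0.54, adjusted p = 0.163). At an unadjusted p under 0.05 there were 3 members higher and 1 lower, beside 10.7% and 9.92% of all genes. Spindle lines lay wholly above the keratinocyte lines in Bnip3, Vegfa and Egln3, as in 12.9% of all genes, and wholly below in Slc2a1, as in 10.1%. Adm and Ddit4 were 1.93 (SE 1.24) and 1.88 (SE 1.29) higher with wide errors, Car9 and Ndrg1 differed by 0.54 and 0.55, and Pdk1 by -0.12, none of them called.

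**Figure D2:**
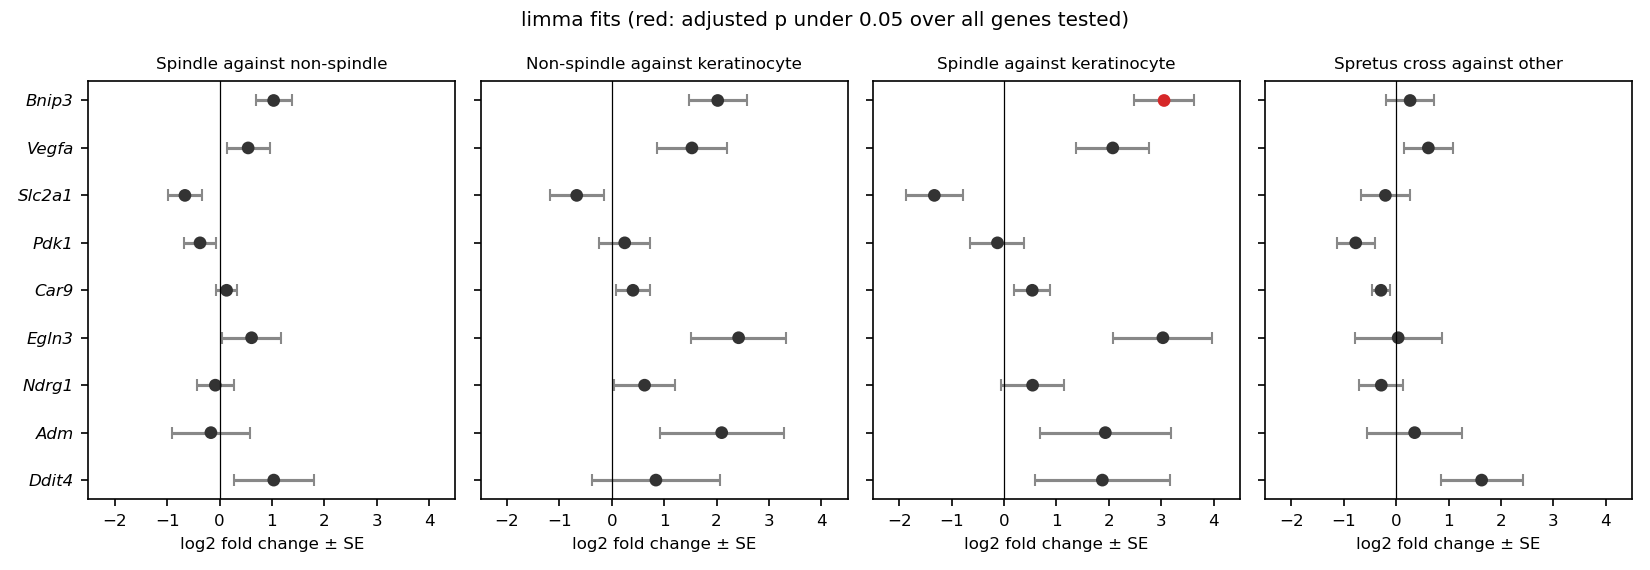
Log2 fold change from limma with its SE (x axis) for each gene (y axis) in 4 comparisons; red marks an adjusted p under 0.05 over all 12641 genes. Only Bnip3 in spindle against keratinocyte lines is red, at 3.06, and Slc2a1 lies below 0 in the 3 stage comparisons; neither keratinocyte line had Egln3 or Car9 above its array's median, so their values against those lines have no exact fold.

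Markers of cell type moved with the same groups. The mean of 10 keratinocyte markers (keratins, Trp63, Cdh1 and others) was 11.85 and 11.88 in the keratinocyte lines, between 4.18 and 12.17 in non-spindle lines and between 4.63 and 5.83 in spindle lines. That of 10 mesenchymal markers was 5.91 and 6.45, between 5.06 and 11.83, and between 7.93 and 11.56. Both keratinocyte lines had all 10 keratinocyte markers above the array's median, and spindle lines had between 2 and 5 of them. Their part in the changes of Bnip3 was not tested. Endothelial, leukocyte and melanocyte markers, of 5 genes each, stayed between means of 3.93 and 5.85 in every line, the highest being leukocyte markers in SN161. In every line 2 or 3 of the 5 leukocyte markers were above the array's median. Of the endothelial and of the melanocyte markers 0 to 2 were.

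The machinery upstream of these genes was followed through 11 HIF subunits, oxygen sensors and regulators, all measured. In spindle against keratinocyte lines limma called 1 higher and 1 lower, where 5.35% of all genes were called and 2.4% were called higher. Cited2, a HIF-induced competitor for the coactivator p300, rose by 1.89 (SE 0.43, limma adjusted p = 0.0154), and Hif1an, the asparaginyl hydroxylase that silences HIF alpha at normal oxygen, fell by 1.38 (SE 0.30, adjusted p = 0.0102). Without C5N neither was called (adjusted p = 0.239 and 0.0766), and Hif1an was also lost without NK (adjusted p = 0.111) and with the mean of its probe sets (-0.69, adjusted p = 0.0907). Hif1a, an oxygen-regulated alpha subunit, ran from 9.95 in PDVC57 to 12.35 in CarC and was called in no comparison, with 0.38 (SE 0.37, adjusted p = 0.612) in spindle against keratinocyte lines. Epas1, another alpha subunit, ran from 3.92 in D3 to 10.26 in PDV and was not called either. It was at -1.83 (SE 0.82, limma adjusted p = 0.215) in spindle against non-spindle lines, where Hif1a was at 0.41 (SE 0.22, adjusted p = 0.298). In spindle against non-spindle and non-spindle against keratinocyte lines limma called 0 of the 11, with 4 and 2 at an unadjusted p under 0.05, against 20.7% and 12% of all genes. Against keratinocyte lines the non-spindle value of Cited2 (1.56, SE 0.41, adjusted p = 0.0552) was called in 5 alternatives: with the mean of probe sets (adjusted p = 0.0367), MSCb1 and 2945CA placed (0.0373), families averaged (0.0476), without SN161 (0.0492) and without MSCP1 (0.0209). Hif1an (-0.98, SE 0.28, adjusted p = 0.0829) was called there without B9 (-1.06, adjusted p = 0.023).

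Other targets were read beside the shares of all genes. Of 32 further hypoxia targets tested, limma called 1 in spindle and 1 in non-spindle against keratinocyte lines, where 5.35% and 2.02% of all genes were called. In spindle against non-spindle lines it called 0, beside 0.0633% of all genes. There 4 higher and 3 lower had an unadjusted p under 0.05, as had 20.7% of all genes. The gene called was Plod2, a collagen lysyl hydroxylase, which rose in non-spindle (limma adjusted p = 0.00151) and in spindle lines (adjusted p = 0.000546). Plod2 was at 3.39 in C5N and 4.10 in NK, below the array medians, so its folds are lower bounds: at least 7.31-fold in non-spindle and 10.5-fold in spindle lines, from fitted differences of 4.20 (SE 0.65) and 4.72 (SE 0.69). It was at 10.22 in the keratinocyte-labelled line of conflicting flag. Neither call held when that line joined the keratinocyte group and B9Smad the spindle group (fitted differences of 2.04, adjusted p = 0.384, and 2.32, adjusted p = 0.166). In spindle against keratinocyte lines 7 of the 32 targets were higher and 3 lower at an unadjusted p under 0.05. Of all genes 10.7% were higher and 9.92% lower there. Of 17 glycolytic enzymes and transporters 0 were called there, 4 were higher at an unadjusted p under 0.05 and 14 of 17 differences were positive, with a median of 0.54 beside 0.04 over all genes, or 0.22 without NK and 0.89 without C5N. Of 13 mitophagy genes and Bnip3 partners 0 were called there, 1 had an unadjusted p under 0.05 (lower), and the median was -0.03, or 0.079 without NK and 0.052 without C5N. Of 14 genes of the integrated stress response, which can raise Ddit4 apart from HIF, 0 were called, 2 were higher at an unadjusted p under 0.05, and the median was 0.55, or 0.086 without NK. Limma also called 0 genes of these 3 lists in spindle against non-spindle and in non-spindle against keratinocyte lines. At an unadjusted p under 0.05 there were 6, 1 and 4 in the former, beside 20.7% of all genes. In the latter there were 1, 0 and 0, beside 12% of all genes.

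Spretus crosses gave 6 of the 12 non-spindle lines, and MSCb1 is such a line too, so the 9 genes were compared between the 6 cross lines and the 6 others. Limma called 0 members and 0% of all genes tested. At an unadjusted p under 0.05 there were 0 members and 1383 genes, or 10.9%. Ddit4 was 1.63 higher in cross lines (SE 0.78, adjusted p = 0.466) and Pdk1 was at -0.77 (SE 0.37, adjusted p = 0.463). Bnip3 differed by 0.27 (SE 0.45, adjusted p = 0.847), from 8.52 ± 0.87 (SD, n = 6) to 8.79 ± 0.82 (SD, n = 6). Markers of cell type differed along the same split. The difference, cross minus other, was positive for all 10 mesenchymal markers (median 2.58, 5 at an unadjusted p under 0.05) and negative for all 10 keratinocyte markers (median -2.77, 1 at an unadjusted p under 0.05), none of them called by limma. The mean of the mesenchymal markers lay between 6.70 and 11.83 in cross lines and between 5.06 and 7.63 in the others, and that of the keratinocyte markers between 4.18 and 12.17 and between 7.63 and 11.93. Without MSC12, MSC11B and MSC7A, the cross lines low in keratinocyte markers, the difference was 1.75 for Ddit4 and -0.49 for Pdk1, neither called.

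Whether Bnip3 moved with the others was read from rank correlations over the 26 lines, which share the stage groups and related lines and are given as a description. Of the other 8 genes Ddit4 followed it most closely (Spearman 0.75, Pearson 0.68), then Vegfa (0.70 and 0.69), Ndrg1 (0.59 and 0.53) and Egln3 (0.55 and 0.63). Adm (Spearman 0.23) followed it weakly, and Pdk1 (-0.04) and Slc2a1 (-0.11) did not. Car9 was at 0.24, but it exceeded the array's median in 3 of 26 lines only, so its order is mostly that of background values. The median of the 8 was 0.40, beside 0.05 over all genes tested, whose 95th percentile was 0.57. So 3 of the 8 lay above that percentile and 5 below it. Among the 8 genes without Bnip3 the 28 pairs had a median of 0.22, with 22 positive.

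**Figure D3:**
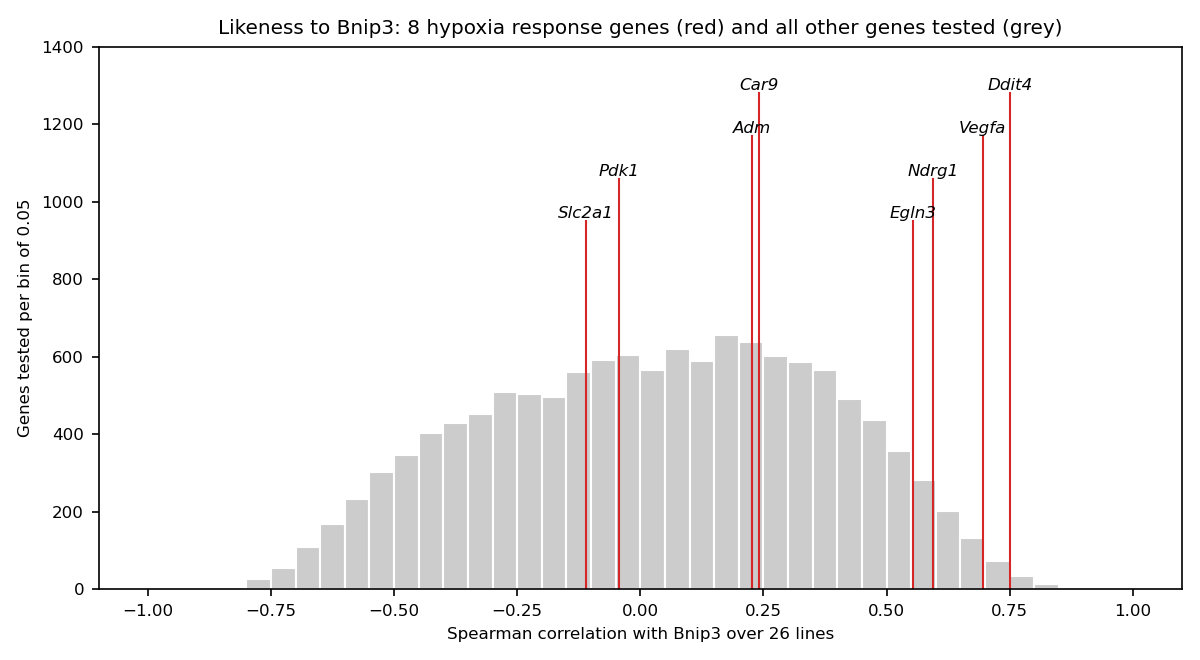
Spearman correlation with Bnip3 over 26 lines (x axis): grey bars count the other genes tested in bins of 0.05 (y axis), and red lines mark the 8 other hypoxia response genes, their heights serving only to place the names. Ddit4 (0.75), Vegfa (0.70) and Ndrg1 (0.59) stand to the right of most genes, Slc2a1 and Pdk1 near the middle.

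Within the 12 non-spindle lines Ddit4 alone lay above the 95th percentile of all genes tested, which was 0.62 there. The Spearman correlation with Bnip3 was 0.71 for Ddit4 and 0.55 for Vegfa, while the other 6 genes lay between -0.29 (Pdk1) and 0.17 (Adm and Egln3). The median of the 8 was 0.14, beside 0.08 over all genes. After group means were subtracted in the 21 grouped lines the correlation was 0.74 for Ddit4, 0.68 for Vegfa and 0.42 for Ndrg1, but 0.21 for Egln3 and -0.37 for Pdk1. The median of the 8 was 0.29 there, beside 0.02 over all genes. Over the 24 lines other than MSCb1 and 2945CA the correlation was 0.74 for Ddit4 and 0.63 for Vegfa. The 7 spindle lines were ordered alike by Bnip3 and Ndrg1 (Spearman 1), and there all members but Pdk1 (-0.57) had positive values. With 7 points such values are loose, and the 95th percentile of all genes in these lines was 0.82.

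The 5 genes tested that ranked nearest to Bnip3 over the 26 lines were none of the 8. They were Kat8 (Spearman 0.87), a histone acetyltransferase, Mgst2 (0.85), a microsomal glutathione transferase, Pon3 (0.84), a lactonase, Acadsb (0.84), a mitochondrial acyl-CoA dehydrogenase, and Aldoa (0.83), the glycolytic aldolase and a textbook HIF target. Within the 12 non-spindle lines they ranged from 0.43 (Aldoa) to 0.87 (Kat8). Among the lists, glycolytic genes had a median of 0.46 with 14 of 17 positive, other hypoxia targets 0.31 with 24 of 32 positive (P4ha1, a collagen prolyl hydroxylase, at 0.79) and mitophagy genes 0.27 with 9 of 13 positive. Integrated stress response genes had a median of 0.22 with 13 of 14 positive. Of all genes tested 54.2% were positive, with a median of 0.05. Hif1a itself was at 0.59 and Hif1an at -0.57. Mesenchymal markers had a median of 0.34, with 10 of 10 positive, and keratinocyte markers of -0.41, with 0 of 10 positive, and their part in the likeness was not tested.

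Line by line, each gene was set against its own median over the 26 lines and the mean of the 8 other genes was taken beside Bnip3. Car9 counts in that mean though it was near background in most lines. Bnip3 and the mean of the others lay on the same side of 0 in 18 of 26 lines. The 8 lines highest in Bnip3 all had a positive mean of the others: CarB (1.16), CarC (1.06), SN161 (0.76), P6 (0.71), the keratinocyte-labelled line of conflicting flag (0.67), 2945CA (0.60), MSCb1 (0.54) and E4 (0.17). The keratinocyte lines were lowest in both, with Bnip3 at -3.01 in NK and -1.90 in C5N and the others at -1.36 and -0.69.

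Of the 8 lines in which they lay on opposite sides, 4 were spindle lines. In A5, H11, D3DP and MSN2 it was 0.66, 0.70, 0.46 and 0.41 above its median, while the mean of the others was at -0.58, -0.44, -0.30 and -0.22. In MSCP1 it was the reverse, with Bnip3 at -1.43 and the others at 0.09. Among the 7 spindle lines CarB and CarC had the most members above their medians, 7 of 9, beside 46.3% and 49.1% of all genes tested. Among these members were Ddit4, by 3.14 and 3.12, and Adm, by 1.79 and 2.52. Slc2a1 (-0.0088 and -0.40) and Pdk1 (-0.58 and -1.22) lay below theirs, Pdk1 in CarC at rank 25 of 26. Hif1a was also highest in these 2 lines (11.90 in CarB, 12.35 in CarC), and Hif1an lowest (6.30 and 6.25). SN161 likewise had 7 of 9 members above their medians, beside 49.2% of all genes tested, led by Vegfa (2.49) and Ddit4 (2.43). Car9 was counted there though it was not above that array's median.

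**Figure D4:**
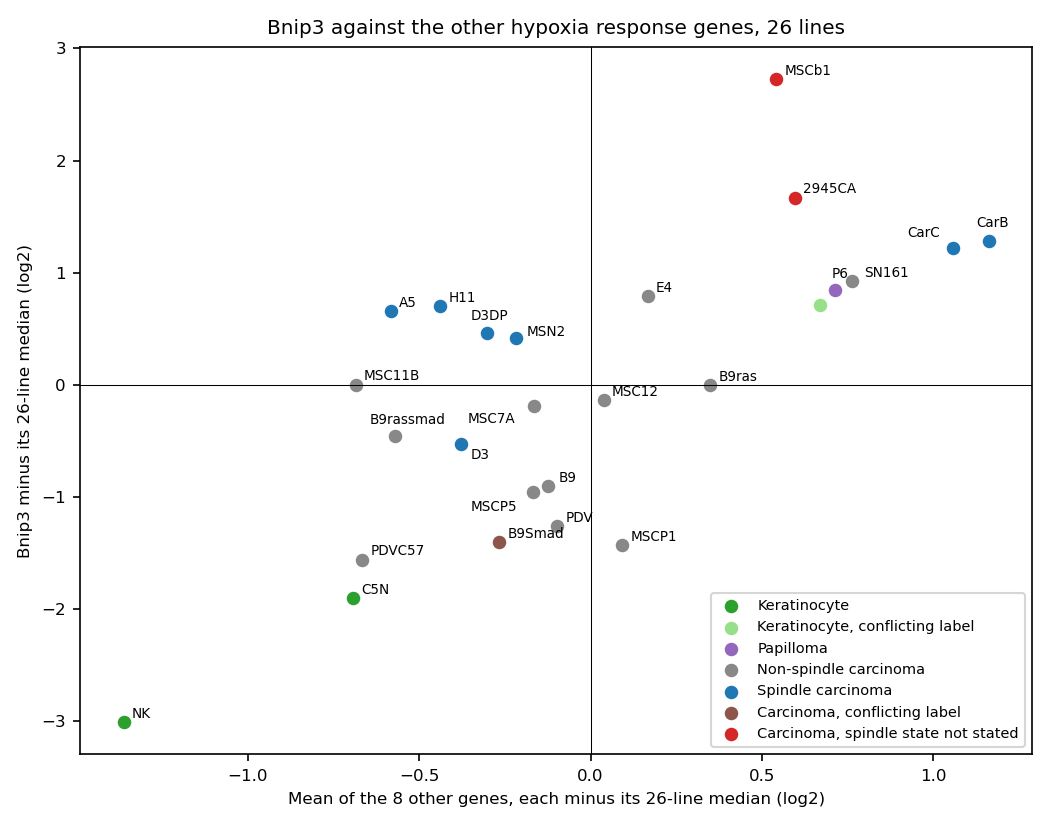
Bnip3 minus its 26-line median (y axis, log2) against the mean of the 8 other genes, each minus its own median (x axis, log2), 1 point per line and coloured by stage label. MSCb1 and 2945CA have the highest Bnip3 but not the highest others, CarB and CarC are high in both, and A5, H11, D3DP and MSN2 sit at upper left.

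MSCb1 held the highest Bnip3 of all lines. At 11.81 it was 3.05 above the non-spindle median of 8.76, or 8.30-fold, and above the other 25 lines, as 8.67% of all genes tested were in that line. Egln3 (9.74) was 3.48 above, or 11.2-fold, and lower only than in P6. Ddit4 (9.79) was 1.88 above, or 3.67-fold, at rank 6 of 26. These 3 of 9 members were 2-fold or more above the non-spindle median, as were 10.4% of all genes. Above the highest non-spindle line were Bnip3, Egln3 and Pdk1, as were 15.1% of all genes. Pdk1 was 0.96 above the median (1.94-fold) and, like Bnip3, higher than in any other line, and Ndrg1 and Vegfa were 0.87 and 0.59 above, within the non-spindle range. Other probe sets of these 3 genes passed 2-fold: up to 1.15 above for Pdk1, up to 1.19 for Ndrg1 and 1.04 for Vegfa. Slc2a1 and Car9 were at -0.31 and -0.40. Adm, at 5.52, was the 1 member 2-fold or more below (-1.84), as were 10.8% of all genes. The mean of the 8 others was at rank 7 of 26, while Bnip3 was at rank 1.

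Other genes of these pathways were read in MSCb1 by the same rule. Of all genes tested 10.4% were 2-fold or more above the non-spindle median in this line and 10.8% as far below. Of 17 glycolytic genes 5 (Pfkl, Aldoa, Aldoc, Eno2 and Slc16a3) were 2-fold or more above the non-spindle median and 0 below. Of 32 other hypoxia targets 11 were above, P4ha1, Plod2 and Lox among them, and 4 below, and of 13 mitophagy genes 3 were above (Fundc1, Pink1 and Gabarapl1). Of 14 integrated stress response genes 1 (Nupr1) was above and 6 (Asns, Chac1, Trib3, Atf3, Psat1 and Ppp1r15a) were below. The line had keratinocyte and mesenchymal marker means of 8.11 and 8.13, the first between the keratinocyte and the spindle lines and the second within the spindle range. The part of cell state in these values was not tested.

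The genes beside Bnip3 on chromosome 7 were read in MSCb1 too. Of the 5 nearest measured genes on each side in the RefSeq order 4 passed the filter, and none was as far above the non-spindle median as Bnip3. Pwwp2b was 1.40 above the non-spindle median and highest of the 26 lines, Mapk1ip1 1.31 above, Ppp2r2d, the nearest of the 4, 0.51 above and Lrrc27 0.29 above. The other 6 reached at most 4.82 in any of the 26 lines, below every array's median.

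2945CA came second to MSCb1 in Bnip3 but had another profile. Its Bnip3 of 10.76 was 2.00 above the non-spindle median, or 3.99-fold. Egln3 (8.49) was 2.23 above, or 4.69-fold, and Vegfa (9.66) 1.80 above, or 3.49-fold. These 3 of 9 members were 2-fold or more above, as were 8.13% of all genes tested, and 0 were as far below, as were 5.78%. Ddit4, Ndrg1, Pdk1 and Slc2a1 were 0.94, 0.69, 0.45 and 0.39 above, Car9 was 0.05 above and Adm was at -0.91. By other probe sets Egln3 was 1.17 above, Ndrg1 up to 1.19 above and Adm at -1.41, so passing the 2-fold rule depends on the probe set. In 8 of the 9 genes the line lay above the 26-line median, the highest such count of any line, as it did in 51.1% of all genes tested. Car9, counted among the 8, was not above that array's median. Only Bnip3 exceeded the non-spindle range, as did 8.96% of all genes, and 0 members exceeded the other 25 lines, as did 3.34%.

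Stress response genes lay high in 2945CA against the non-spindle median. Of 14 integrated stress response genes 8 (Ddit3, Asns, Chac1, Trib3, Slc7a11, Vldlr, Ppp1r15a and Nupr1) were 2-fold or more above it and 0 below. Of all genes tested 8.13% were as far above and 5.78% as far below. Only 2 of the 14, Asns and Nupr1, exceeded the other 25 lines, as did 3.34% of all genes. The list also lay higher in spindle than in non-spindle lines, with a median of 0.40 beside 0.04 over all genes and 10 of 14 positive. Asns, Chac1, Trib3 and Ppp1r15a were 2-fold or more below the non-spindle median in MSCb1. With 1 array for each line the difference between 2945CA and MSCb1 has no test. Of 17 glycolytic genes 3 (Pfkp, Aldoc and Eno2) were above and 1 (Pfkfb3) was below, and of 32 other hypoxia targets 10 were above and 2 below. Keratinocyte and mesenchymal marker means were 5.05 and 9.62, both within the range of the spindle lines.

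**Figure D5:**
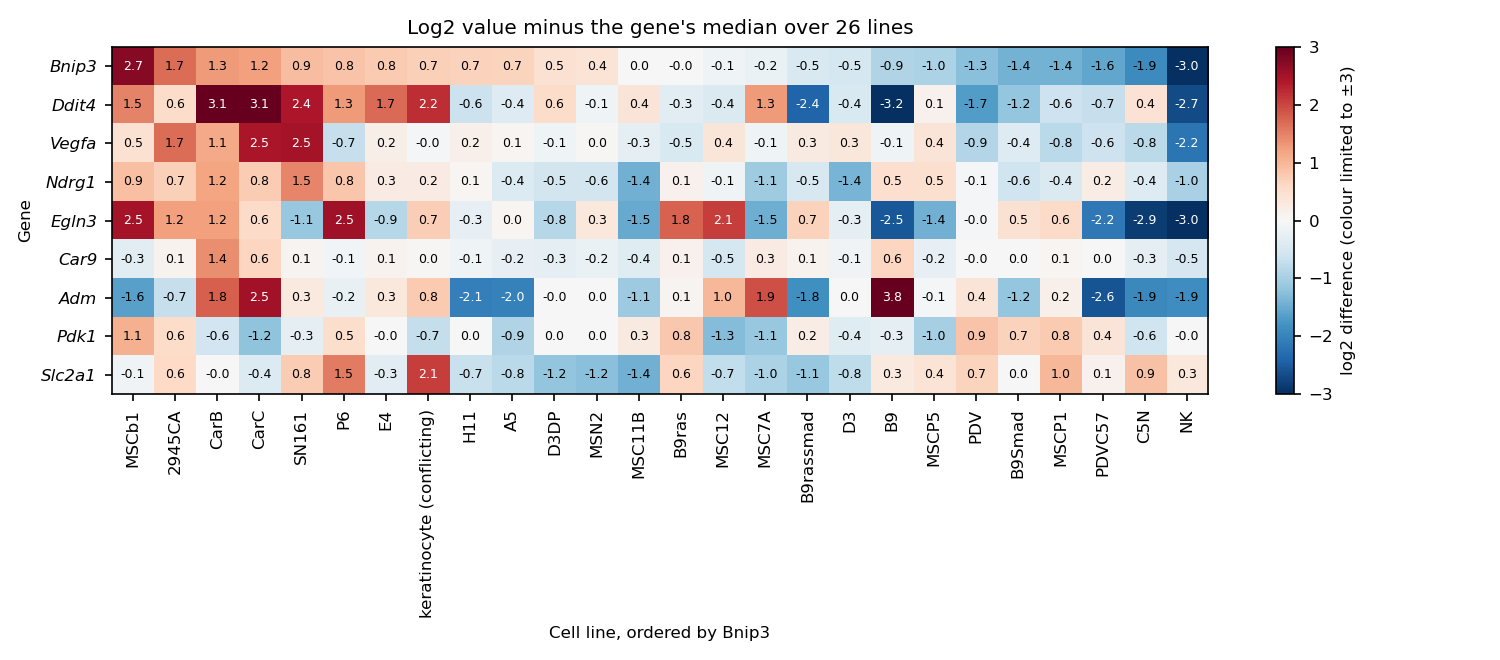
Each gene's log2 value minus its median over the 26 lines (colour and printed number), with genes as rows and lines as columns ordered by Bnip3 from the highest, MSCb1, to the lowest, NK. Ddit4, Vegfa, Ndrg1 and Egln3 tend to fall from left to right, and Adm, Pdk1 and Slc2a1 do not.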

How the data were processed

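Transcript levels were measured in 26 lines on Affymetrix M430 2.0 arrays, 1 per line. The deposited log2 values are RMA output of the authors, as the submitters' processing notes state; the version is not given in the sources used here. RMA makes the arrays' distributions nearly equal, so a change in total RNA cannot be seen, and it compresses changes near background. Precision is limited by the number of arrays. Of 45037 probe sets 34945 carried a single gene symbol, 932 several and 9160 none, and 34741 of the first matched a current gene in RefSeq (GRCm38.p6). Each gene was read from its probe set with the highest mean. Lines were grouped where cell type label and flags agreed. A limma model of group means (version 3.58.1 in R 4.3.3, lmFit then eBayes) was run over 12641 genes. A gene was called at an adjusted p under 0.05 by the Benjamini-Hochberg method. Single lines were set against the median of the 12 non-spindle lines with no test. Correlations were computed with pandas 2.3.3 and scipy 1.17.1.

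The genes, the lists (130 entries, 7 without a single-gene probe set, Bnip3l among them) and the tests were chosen with earlier results of these data known. Named were the 9 genes, up to 3 called genes of each list per comparison, HIF subunits and sensors, the 5 genes most like Bnip3 by Spearman correlation, 5 measured neighbours on each side and the cell type markers; list genes in the single lines were named by the 2-fold rule. Alternatives changed the probe set rule, the filter, the scaling, the placing of lines, the handling of related lines and each line in turn. They were also run for Cited2, Hif1an and Plod2, a choice made after seeing the data. The name of the keratinocyte-labelled line of conflicting flag is not reported here.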

Additional observations from a re-analysis of the deposited data

Results flagged for a closer look

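Vegfa in SN161, at 10.49, lay far above the other 5 non-spindle lines from Spretus crosses, of which the nearest was at 8.39. Car9 in B9, at 5.44, lay above the other 5 non-spindle lines of other origin, of which the nearest was at 4.94, both values being close to the array medians. These were 2 of 27 groups looked at for a single distant line, a check that flags about 1 in 20 groups by chance.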

How the results depend on the processing

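Both comparisons with keratinocyte lines rest on 2 such lines. No paired analysis was possible because replicate numbers were given in accession order and pair nothing. Among all genes, the spindle against non-spindle count of 8 became 5 with the mean of probe sets, 3 with no filter, 0 with conflicting lines placed by label, 3 with MSCb1 and 2945CA placed with non-spindle lines, 2 with name family as a random block, 179 with name families averaged and 1954 without MSC12, MSC11B and MSC7A, and lay between 2 and 471 without single lines (183 without MSC7A, 179 without MSC12, 471 without MSC11B, and 2 to 5 without 14 others). Non-spindle against keratinocyte went from 255 to 163 (conflicting lines placed), 383 (families averaged) and 147 to 352 (single lines; 147 without C5N). Spindle against keratinocyte went from 676 to 1252 (families averaged) and 258 to 765 (258 without C5N, 284 without NK). The Spretus comparison gave 0 to 163 without single lines (163 without MSCP1). Members called rose to 1 in spindle against non-spindle without the 3 MSC lines, and to 1 in non-spindle against keratinocyte with families averaged (Egln3, 2.23, limma adjusted p = 0.011), with 0 to 1 without single lines. In spindle against keratinocyte there were 3 with families averaged (Bnip3, Egln3 and Slc2a1), 2 without the 3 MSC lines (Bnip3 and Egln3) and 0 to 2 without single lines: 0 without NK, and 2 without SN161 (Vegfa, adjusted p = 0.0297), B9ras, MSC12 or B9 (Egln3, adjusted p = 0.0495, 0.0376 and 0.049). With conflicting lines placed the 1 member was Slc2a1 (-1.73, adjusted p = 0.035), not Bnip3. The cause was not tested.

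Uncalled small differences changed sign: in spindle against non-spindle, Car9 (-0.0084, families averaged; -0.072 to 0.21 without single lines), Adm (0.029, MSCb1 and 2945CA placed; -0.58 to 0.18) and Ndrg1 (-0.30 to 0.13). Against keratinocytes, Ddit4 in non-spindle (-0.27, conflicting lines placed; -0.71 to 2.40) and Pdk1 in non-spindle (-0.048 to 0.54) and spindle lines (0.15, conflicting lines placed; -0.42 to 0.17) did so. In the Spretus comparison these were Slc2a1 (0.68), Egln3 (-0.14) and Ndrg1 (0.41) without the 3 MSC lines, and Slc2a1 (-0.44 to 0.050), Egln3 (-0.47 to 0.50) and Adm (-0.17 to 1.10) without single lines. Over the alternatives run on all stages together, the median likeness of the 8 genes to Bnip3 lay between 0.40 and 0.52. It was lower within the non-spindle lines (0.14) and in the 21 grouped lines after group means were subtracted (0.29). MSCb1 and 2945CA each had 3 members 2-fold or more above the non-spindle median with the mean of probe sets and with array medians subtracted too. Placing conflicting lines and averaging families were not run for the Spretus comparison.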
